A study of Mus musculus with 311 samples.

Results

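Livers with the highest and the lowest expression of Gsta2 were compared in an intercross of mice. Gsta2 codes for an alpha-class glutathione transferase, an enzyme that joins glutathione to reactive electrophiles and reduces lipid peroxides. The members were 154 arrays of 311 in all, 1 array per animal. They were chosen on measured values: the arrays were first split on the Y-linked translation factor gene Eif2s3y, and within each side they were ranked by Gsta2, divided into 4 groups of near-equal size, and the highest group was compared with the lowest. The Eif2s3y-high set held 155 arrays, with 38 in its Gsta2-high group and 38 in its Gsta2-low group. The Eif2s3y-low set held 156 arrays, with 39 in each of these groups. The other 157 arrays lay in the middle groups.

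All animals were F2 progeny of C57BL/6J and C3H/HeJ parents, and both parental strains were ApoE null, so that every animal compared here lacked a working gene of apolipoprotein E, the protein that clears remnant lipoproteins. They were of both sexes and ate a Western diet rich in fat between weeks 8 and 24 of life. No sex, genotype or phenotype of a single animal was used, and the labels give all animals the same treatment. The groups were defined only by values measured on the arrays. Whether the groups also differ in genotype or phenotype was not tested. Total RNA of each liver was labelled with Cy3 and set against a Cy5-labelled pool of all samples, so each value is a ratio of 1 liver to the pool, given here as log2, with 0 for the level of the pool and 1 for a doubling. Such ratios carry no absolute level, so neither the presence of a transcript nor the purity of the tissue was read from them. In whole liver, fewer cells of a type and less RNA per cell cannot be told apart.

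Glutathione transferases belong to the conjugating phase of drug metabolism. Many of them, Gsta2 among them, are induced together with quinone reductase and the enzymes of glutathione synthesis by the transcription factor Nrf2, which Keap1 holds in check until electrophiles or oxidants release it. Nrf2 binds antioxidant response elements, which often enclose a site for the AP-1 factors. Cytochromes P450 of the Cyp2b, Cyp2c and Cyp3a families are induced by the xenobiotic receptors CAR and PXR, and Cyp1a genes by the Ah receptor. Some hepatic transferases, cytochromes and transporters also differ between male and female mice.

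Promoter windows are shown for Gsta2, which defined the comparison, and for 3 genes that were higher in both sets and whose windows hold the letters of an antioxidant response element core (TGACNNNGC) or an AP-1 site (TGANTCA), searched on both strands. The 3 are examples. Other genes higher in both sets also have such a window and are not shown, Anxa2, Aox1 and Mmp12 among them. The sequences are from RefSeq on GRCm38.p6, each from 250 bases before to 50 after the start of transcription, read 5′ to 3′ on the strand of the gene, with matches in capitals.
Gsta2, chr9:78347096-78347395, minus strand, with neither motif: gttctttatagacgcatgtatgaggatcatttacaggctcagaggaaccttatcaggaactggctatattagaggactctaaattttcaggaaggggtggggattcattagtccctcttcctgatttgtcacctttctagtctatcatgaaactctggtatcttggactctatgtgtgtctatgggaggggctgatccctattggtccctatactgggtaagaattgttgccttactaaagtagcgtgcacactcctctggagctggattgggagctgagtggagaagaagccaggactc
Sprr1a, chr3:92485832-92486131, minus strand: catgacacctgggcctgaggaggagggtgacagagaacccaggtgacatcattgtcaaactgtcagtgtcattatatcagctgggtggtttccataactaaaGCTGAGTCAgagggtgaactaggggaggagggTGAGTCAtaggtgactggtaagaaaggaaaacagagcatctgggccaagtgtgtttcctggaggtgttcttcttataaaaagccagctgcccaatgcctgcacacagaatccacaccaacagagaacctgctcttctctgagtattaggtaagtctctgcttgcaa
Ugdh, chr5:65435793-65436092, minus strand: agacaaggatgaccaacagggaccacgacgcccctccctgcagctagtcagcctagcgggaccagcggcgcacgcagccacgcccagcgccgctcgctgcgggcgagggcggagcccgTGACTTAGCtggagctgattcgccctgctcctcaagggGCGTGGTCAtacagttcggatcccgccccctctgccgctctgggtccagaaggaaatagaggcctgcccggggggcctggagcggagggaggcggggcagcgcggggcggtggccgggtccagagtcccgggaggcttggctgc
Nfe2l2, chr2:75704614-75704913, minus strand: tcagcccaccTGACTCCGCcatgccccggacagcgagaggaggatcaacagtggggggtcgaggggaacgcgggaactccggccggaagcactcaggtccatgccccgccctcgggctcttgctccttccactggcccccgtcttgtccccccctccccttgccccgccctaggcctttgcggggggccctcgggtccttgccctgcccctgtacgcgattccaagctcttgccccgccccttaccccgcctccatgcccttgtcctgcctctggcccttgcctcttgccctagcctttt

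In the window of Sprr1a an antioxidant response element core on the opposite strand, beginning 148 bases before the start, overlaps an AP-1 site beginning at 146, and a further AP-1 site begins at 116. Ugdh holds 2 cores, at 132 and 94, and Nfe2l2, the gene of Nrf2 itself, holds 1 at 240. Over all 32851 promoter windows of the table, 12.4% held the core and 7.81% the AP-1 site. The 763 windows of genes higher in both sets held them in 13.9% and 8.13%, and the 594 windows of genes lower in both in 13.0% and 5.72%, against 13.6% and 6.70% of the 10784 windows of all genes tested. Of the 11 windows that matched Nrf2 target genes higher in both sets, 2 held the core (18.2%) and 1 the AP-1 site (9.09%). Of the 28 windows that matched all Nrf2 targets measured, 6 held the core (21.4%) and 2 the AP-1 site (7.14%). A match is a description of the letters, and a window without one says only that these letters are not in it.

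Gsta2 itself, which chose the arrays, is given as a description with no test. Its log2 ratio ran from 0.68 to 1.36 (median 0.88) in the Gsta2-high group of the Eif2s3y-high set, against -3.02 to -0.35 (median -0.97) in its Gsta2-low group. The corresponding values were 0.11 to 1.29 (median 0.46) in the Gsta2-high group of the Eif2s3y-low set, against -3.80 to -1.11 (median -1.72) in its Gsta2-low group. The Gsta2-low groups had the wider spread, with a long tail of low values on both sides of the split.

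The group means differed by 1.99 on the log2 scale (3.98-fold) in the Eif2s3y-high set and by 2.36 (5.12-fold) in the Eif2s3y-low set, and from the lowest to the highest array Gsta2 spanned 20.8-fold and 33.9-fold. At the boundaries the groups were continuous: in the Eif2s3y-high set the last array inside the Gsta2-high group had 0.68 and the next outside it 0.67, and the last array inside the Gsta2-low group had -0.35 and the next outside it -0.32. In the Eif2s3y-low set these pairs were 0.11 and 0.068, and -1.11 and -1.07. The split on Eif2s3y, by contrast, fell in a gap, between log10 ratios of -0.219 and -0.875. Within each set Eif2s3y had similar medians in both extreme groups, 1.23 in the Gsta2-high and 1.22 in the Gsta2-low group of the Eif2s3y-high set, and -4.91 in the Gsta2-high and -4.90 in the Gsta2-low group of the Eif2s3y-low set. The Y-linked demethylase Kdm5d, which took no part in the split, separated the sets without overlap: it ran from -0.21 to 1.60 (median 1.05) over the Eif2s3y-high set, and from -4.91 to -0.85 (median -3.38) over the Eif2s3y-low set. Gsta2 was read from 1 probe, and the close relative Gsta1 was not measured here, so hybridization of its transcript to that probe cannot be told apart from Gsta2.

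**Figure D1:**
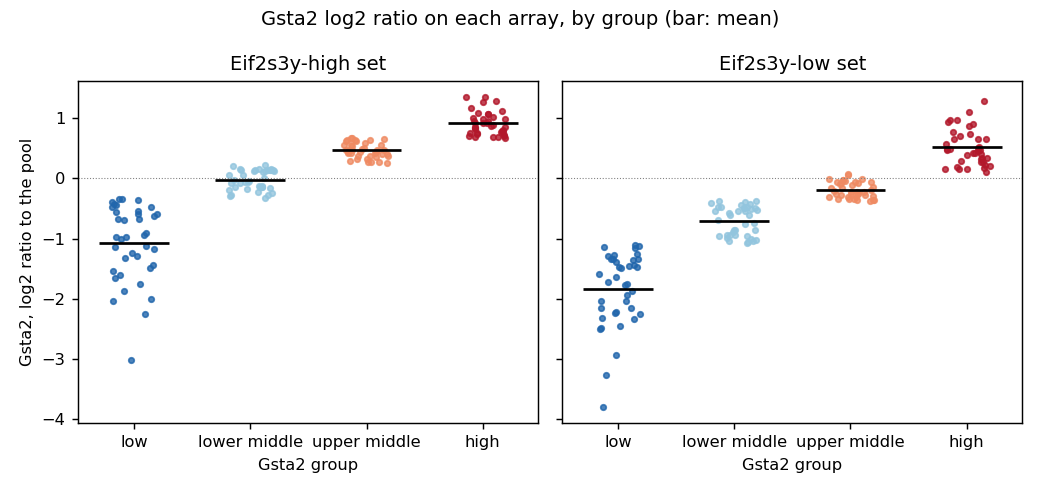
Log2 ratio of Gsta2 to the pool on each array (points) by Gsta2 group from low to high, in the Eif2s3y-high set (left) and the Eif2s3y-low set (right), with the mean as a bar. The groups follow one another without a gap and the Gsta2-low groups spread widest, with means of -1.08 and -1.84 against 0.91 and 0.51 in the Gsta2-high groups.

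Technical measures of the arrays were compared between the groups by two-sided permutation tests, 8 over the measures and sets, with Benjamini-Hochberg adjustment. The array median of the log10 ratio was lower in the Gsta2-high groups, 0.00234 in the Gsta2-high and 0.00529 in the Gsta2-low group of the Eif2s3y-high set (adjusted p = 0.0024) and 0.00308 in the Gsta2-high and 0.00624 in the Gsta2-low group of the Eif2s3y-low set (adjusted p = 0.0016). The SD over probes of an array was lower in the Gsta2-high group of the Eif2s3y-high set (0.103 in the Gsta2-high against 0.116 in the Gsta2-low group, adjusted p = 0.0248), and 0.101 in the Gsta2-high against 0.108 in the Gsta2-low group of the other set (adjusted p = 0.244). Missing values and the F2 number, which is the only label that numbers the animals, had adjusted p-values of 0.366 to 0.796. A marker gene of pancreas or muscle at 10-fold or more over the pool was seen on 12 of the 311 arrays, 4 of them in the Gsta2-high groups and 3 in the Gsta2-low groups. Most arrays lay far below the pool for the pancreas markers. Their mean log2 ratio had medians of -4.10 and -4.02 in the Gsta2-high groups of the Eif2s3y-high and Eif2s3y-low sets, and -3.95 and -4.04 in the Gsta2-low groups. Arrays with less of such RNA than the 10-fold limit were therefore not counted.

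The comparison asked which transcripts moved with Gsta2 on both sides of the split. Across 11385 named genes other than Gsta2 and Eif2s3y, a limma fit in each set with Benjamini-Hochberg adjustment over all of them called 3726 genes (32.7%) at an adjusted p under 0.05 in the Eif2s3y-high set, 1754 higher (15.4%) and 1972 lower (17.3%) in the Gsta2-high group. The Eif2s3y-low set gave 1953 (17.2%), with 994 higher (8.73%) and 959 lower (8.42%). Both sets, which share no animal, called 1428 genes in the same direction (12.5%), 798 of them higher (7.01%) and 630 lower (5.53%), and 7 in opposite directions (0.0615%). With each array centred on its median the Eif2s3y-high set gave 1891 higher and 1712 lower genes, the Eif2s3y-low set 1099 and 730, and both sets 859 and 476. Most shared differences were small: 257 of the higher genes reached 1.25-fold in both sets, 58 reached 1.5-fold and 9 reached 2-fold, against 65, 14 and 2 of the lower genes. Where a pair of log2 differences is given below for a gene or list, the Eif2s3y-high set stands before the Eif2s3y-low set, ± gives the SE, and n is 38 and 39 arrays per group unless stated. The p-values judge the difference between the Gsta2 groups against the spread between animals, and say nothing of an order of events.

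The middle groups, which no call used, were set against each other as a second look at the shared genes. Gsta2 differed there by 0.49 and 0.51 on the log2 scale between the upper and the lower middle group. Of the 798 genes higher in both sets, 655 (82.1%) were higher in the upper than in the lower middle group of the Eif2s3y-high set and 482 (60.4%) in the Eif2s3y-low set, against 52.2% and 48.5% of all genes tested. Of the 630 lower genes, 472 were lower in the upper middle group of the Eif2s3y-high set and 388 in the Eif2s3y-low set. Of all 11385 genes tested, 5444 and 5865 were. Single genes rarely passed there: limma called 0 genes (0.0%) in the Eif2s3y-high set, where 601 had an unadjusted p under 0.05, and 12 (0.105%) in the Eif2s3y-low set, where 1599 had an unadjusted p under 0.05.

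**Figure D2:**
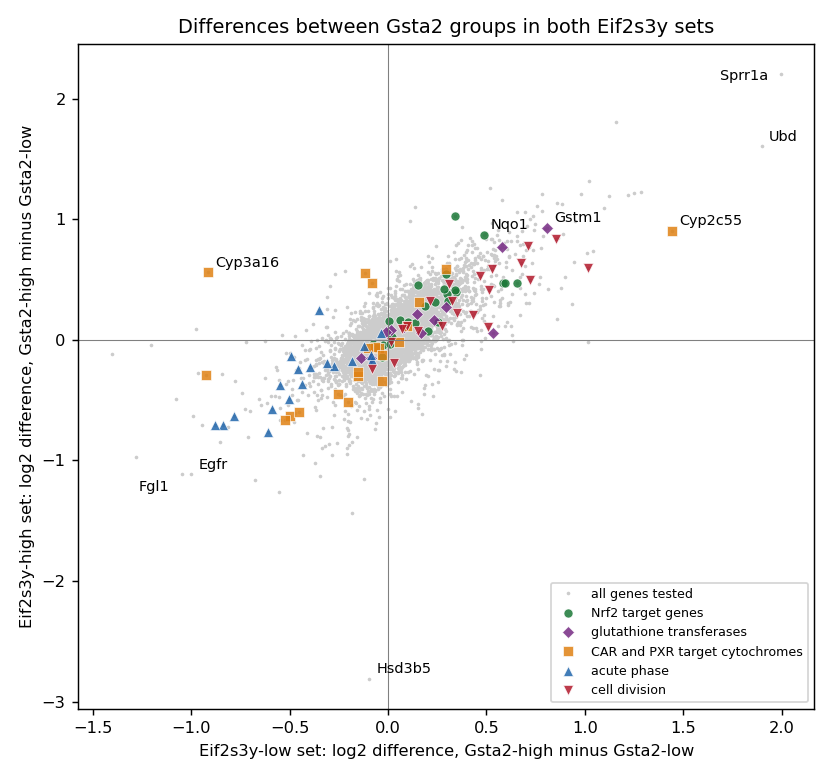
Log2 difference of each of 11385 genes between the Gsta2-high and the Gsta2-low group, in the Eif2s3y-low set (horizontal) and the Eif2s3y-high set (vertical), with 5 gene lists in colour. Nrf2 target genes and cell division genes lie mostly in the upper right, acute phase genes in the lower left, and Cyp3a16 and Hsd3b5 lie off the diagonal.

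Among the glutathione transferases, the family of Gsta2, 12 other genes were measured: 3 were higher in both sets (Gstm1, Gstm2 and Gstt2) and 1 was lower in both (Gsto1). These are 25% and 8.33%, beside 7.01% and 5.53% of all genes tested. The median log2 differences of the list were 0.10 and 0.16, beside -0.014 and -0.015 over all genes tested. Gstm1, the main mu-class transferase of mouse liver, ran from -0.37 to 1.20 (median 0.34) in the Gsta2-high group of the Eif2s3y-high set, against -1.57 to 0.43 (median -0.58) in its Gsta2-low group. Its range was -0.66 to 0.99 (median 0.049) in the Gsta2-high group of the Eif2s3y-low set, against -1.46 to 0.24 (median -0.70) in its Gsta2-low group. All 38 and all 39 arrays of the Gsta2-high groups exceeded the median of the Gsta2-low group of their set, while the ranges overlapped.

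The log2 difference of Gstm1 was 0.93 ± 0.10 (adjusted p = 1.08e-11) and 0.81 ± 0.10 (adjusted p = 6.02e-10), or 1.91-fold and 1.75-fold. Gstm2, a neighbour in the same gene cluster, ran from -0.45 to 1.08 (median 0.39) in the Gsta2-high group of the Eif2s3y-high set, against -2.23 to 0.68 (median -0.37) in its Gsta2-low group, and differed by 0.77 ± 0.10 (adjusted p = 1.35e-08) and 0.58 ± 0.11 (adjusted p = 5.9e-05). Transcripts of the mu-class genes are much alike, and cross-hybridization among their probes cannot be told apart from shared change. Gstt2, a theta-class transferase, differed by 0.27 (adjusted p = 0.00596) and 0.29 (adjusted p = 0.00376), and Gsto1, an omega-class member, by -0.15 (adjusted p = 0.0192) and -0.14 (adjusted p = 0.035). Between the extreme 10% of arrays at either end of the Eif2s3y-high set Gstt2 had a log2 difference of -0.049, and with each array centred on its median Gsto1 had an adjusted p of 0.0547 in the Eif2s3y-low set. Gstp1, the pi-class transferase that is more abundant in male mouse liver, had 0.055 (adjusted p = 0.826) and 0.53 (adjusted p = 1.79e-07), and the test of the difference between the sets had an adjusted p of 0.138. The remaining 7, among them Gstt1 at 0.085 and 0.016 and the microsomal Mgst2 at 0.22 (adjusted p = 0.0477) and 0.15 (adjusted p = 0.468), were called in at most 1 set.

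Of the Nrf2 target genes, 12 of 27 measured (44.4%) were higher in both sets and 0 lower, beside 7.01% and 5.53% of all genes tested, with median log2 differences of 0.28 and 0.20. The 12 were Nqo1, Cbr3, Akr1b8, Aox1, Ephx1, Ugdh, Entpd5, Ces1g, Gclc, Blvrb, Abcc3 and Nfe2l2. Nqo1, a quinone reductase and standard readout of Nrf2, ran from -0.84 to 0.92 (median 0.15) in the Gsta2-high group of the Eif2s3y-high set, against -1.59 to 0.19 (median -0.67) in its Gsta2-low group. It ran from -0.32 to 1.34 (median 0.43) in the Gsta2-high group of the Eif2s3y-low set, against -0.61 to 0.63 (median -0.028) in its Gsta2-low group. The groups overlapped, yet 37 of 38 and 36 of 39 Gsta2-high arrays lay above the Gsta2-low median.

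Nqo1 differed by 0.87 ± 0.084 (adjusted p = 7.02e-13) and 0.49 ± 0.069 (adjusted p = 1e-07), and the size differed between the sets (difference 0.39 ± 0.11, adjusted p = 0.0289). Ephx1, the microsomal epoxide hydrolase, ran from 0.028 to 0.98 (median 0.26) in the Gsta2-high group of the Eif2s3y-high set, against -1.34 to 0.89 (median -0.15) in its Gsta2-low group. Every Gsta2-high array of that set lay above the Gsta2-low median, as did 37 of 39 in the Eif2s3y-low set. The log2 difference of Ephx1 was 0.47 ± 0.081 (adjusted p = 2.7e-06) and 0.60 ± 0.082 (adjusted p = 4.64e-08). Ugdh, which makes UDP-glucuronic acid for glucuronidation and whose window is shown above, ran from -0.74 to 0.51 (median -0.15) in the Gsta2-high group of the Eif2s3y-low set, against -2.05 to 0.18 (median -0.85) in its Gsta2-low group, and all 39 Gsta2-high arrays exceeded the Gsta2-low median. Its differences were 0.47 ± 0.069 (adjusted p = 1.06e-07) and 0.65 ± 0.084 (adjusted p = 6.62e-09).

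Gclc, the catalytic subunit that sets the rate of glutathione synthesis, differed by 0.38 (adjusted p = 0.000368) and 0.30 (adjusted p = 0.00288), whereas the regulatory subunit Gclm had 0.022 (adjusted p = 0.841) and 0.018 (adjusted p = 0.905). The carbonyl reductase Cbr3 had the largest log2 difference of the list, 1.02 in the Eif2s3y-high set, with 0.34 in the Eif2s3y-low set. The reductase Akr1b8 had 0.55 and 0.30, the aldehyde oxidase Aox1 0.47 and 0.59, and the efflux pump Abcc3 0.32 and 0.24. For Nfe2l2, the transcript of Nrf2 itself, the differences were 0.33 ± 0.052 (adjusted p = 6.34e-07) and 0.31 ± 0.047 (adjusted p = 5.68e-07), with 37 of 38 and 37 of 39 Gsta2-high arrays above the Gsta2-low median.

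The other 15 Nrf2 targets were not called in both sets, among them the heme oxygenase Hmox1 at 0.076 (adjusted p = 0.714) and 0.20 (adjusted p = 0.394) and the cystine carrier Slc7a11 at -0.064 (adjusted p = 0.813) and -0.055 (adjusted p = 0.475). Glutathione reductase, Gsr, passed in the Eif2s3y-high set alone with 0.28 (adjusted p = 0.0118) and 0.19 (adjusted p = 0.116), as did the thioredoxin reductase Txnrd1 with 0.16 (adjusted p = 0.00863) and 0.003 (adjusted p = 0.967) and the malic enzyme Me1 with 0.43 (adjusted p = 0.00516) and 0.28 (adjusted p = 0.146). The pentose phosphate enzyme Tkt passed in the Eif2s3y-low set alone, with 0.15 (adjusted p = 0.0869) and 0.26 (adjusted p = 0.0107). Keap1, the inhibitor of Nrf2, had 0.041 (adjusted p = 0.507) and -0.047 (adjusted p = 0.609). The difference between the sets did not pass for any of these 7 genes, with an adjusted p of 0.192 for Txnrd1 and more for the others. Another probe, under the name KEAP1, had -0.069 (adjusted p = 0.182) and 0.10 (adjusted p = 0.0435). Sulfiredoxin, which reduces overoxidized peroxiredoxins, is on the array under the name SRXN1 and was not counted in the list, with 0.65 (adjusted p = 2.32e-08) and 0.40 (adjusted p = 1.44e-05) (chosen after its values were seen).

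**Figure D3:**
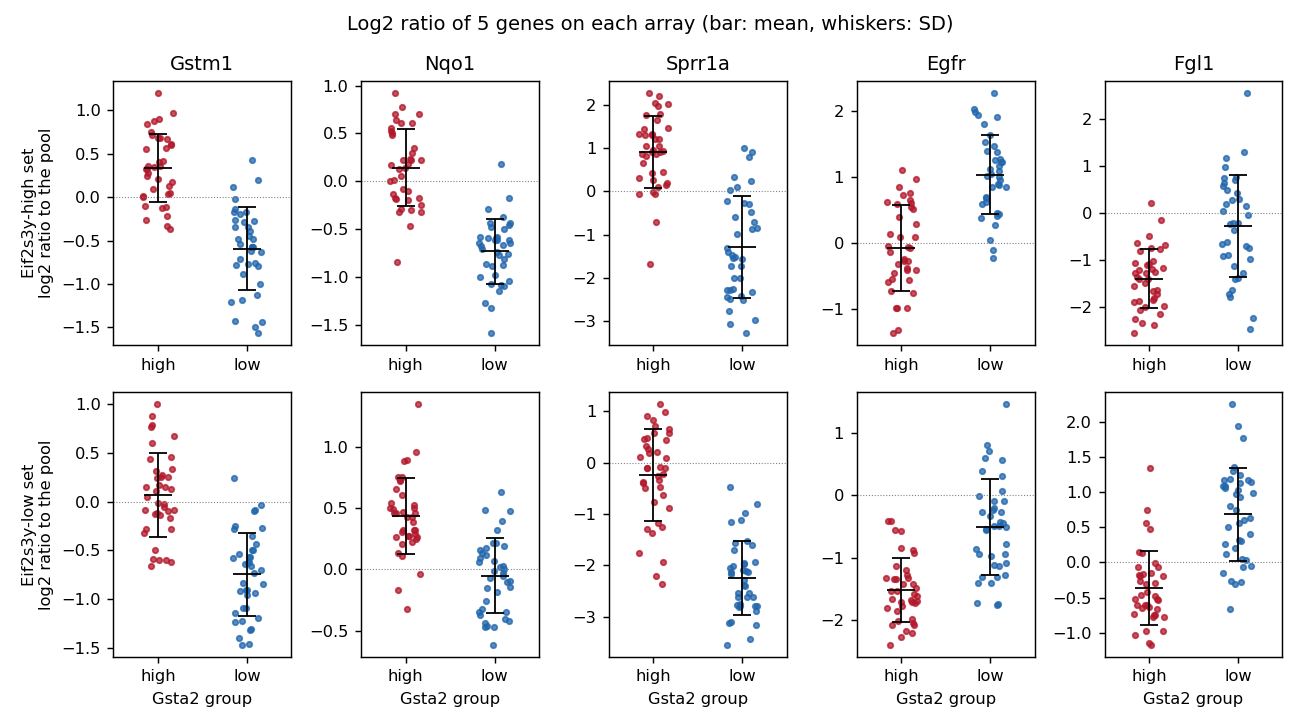
Log2 ratio to the pool of Gstm1, Nqo1, Sprr1a, Egfr and Fgl1 on each array (points) in the Gsta2-high and the Gsta2-low group, in the Eif2s3y-high set (upper row) and the Eif2s3y-low set (lower row), with the mean as a bar and the SD as whiskers. Gstm1, Nqo1 and Sprr1a are shifted upward and Egfr and Fgl1 downward in the Gsta2-high group of both sets, and the points of the groups overlap in every panel.

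Of the antioxidant enzymes, 5 of 20 were higher in both sets (25%) and 1 lower (5%), beside 7.01% and 5.53% of all genes tested. The median log2 differences of the list were 0.048 and 0.032. Gpx4, the peroxidase that reduces phospholipid hydroperoxides, ran from -0.32 to 0.76 (median 0.35) in the Gsta2-high group of the Eif2s3y-high set, against -0.85 to 0.40 (median -0.16) in its Gsta2-low group, and 37 of 38 arrays lay above the Gsta2-low median. It differed by 0.44 ± 0.059 (adjusted p = 1.01e-08) and 0.41 ± 0.071 (adjusted p = 1.05e-05). Gpx7, a peroxidase of the endoplasmic reticulum, ran from -0.44 to 0.55 (median 0.19, n = 37) in the Gsta2-high group of the Eif2s3y-high set, against -0.95 to 0.24 (median -0.47, n = 37) in its Gsta2-low group, and all 37 measured Gsta2-high arrays exceeded the Gsta2-low median. Its differences were 0.64 ± 0.063 (adjusted p = 1.76e-12) and 0.30 ± 0.056 (adjusted p = 3.1e-05).

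Glutathione synthetase, Gss, rose by 0.34 (adjusted p = 4.46e-08) and 0.24 (adjusted p = 7.91e-06), and the mitochondrial peroxiredoxin Prdx3 by 0.17 (adjusted p = 0.00176) and 0.16 (adjusted p = 0.027). The methionine sulfoxide reductases went opposite ways, Msrb2 with 0.12 (adjusted p = 0.0172) and 0.11 (adjusted p = 0.023) and Msrb1 with -0.25 (adjusted p = 6.96e-07) and -0.12 (adjusted p = 0.0126), though with the array SD as a covariate Msrb2 had adjusted p-values of 0.0792 and 0.0647. Gpx1, the abundant cytosolic peroxidase, fell by 0.35 on the log2 scale in the Eif2s3y-high set (adjusted p = 0.000804), with 0.052 (adjusted p = 0.665) in the Eif2s3y-low set, and the sets differed (adjusted p = 0.0274). Catalase, Cat, had 0.10 (adjusted p = 0.657) and -0.081 (adjusted p = 0.814), and the mitochondrial superoxide dismutase Sod2 had -0.016 (adjusted p = 0.855) and 0.081 (adjusted p = 0.381). Of the glutathione transferases, Nrf2 targets and antioxidant enzymes together, 20 of 59 were higher in both sets (33.9%) and 2 lower (3.39%).

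Cytochromes induced by CAR and PXR did not rise as a group. Of 21, 1 was higher in both sets (4.76%, near the 7.01% of all genes tested). The lower side held 4 (19%, above the 5.53% of all genes tested). The median log2 differences of the list were -0.069 and -0.10. The exception was Cyp2c55, a cytochrome strongly inducible through both receptors in mouse liver, which ran from -1.23 to 2.42 (median 0.26) in the Gsta2-high group of the Eif2s3y-high set, against -3.06 to 0.77 (median -0.65) in its Gsta2-low group. It ran from -1.24 to 2.53 (median 0.46) in the Gsta2-high group of the Eif2s3y-low set, against -3.84 to 0.88 (median -0.86) in its Gsta2-low group. The groups overlapped broadly at their edges, with 36 of 38 and 38 of 39 Gsta2-high arrays above the Gsta2-low median.

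Cyp2c55 differed by 0.91 ± 0.16 (adjusted p = 5.82e-06) and 1.44 ± 0.20 (adjusted p = 3.48e-08), or 1.87-fold and 2.72-fold. Cyp2b10, the usual readout of CAR, had -0.06 (adjusted p = 0.365) and -0.065 (adjusted p = 0.174), and Cyp2c29 had -0.27 (adjusted p = 0.074) and -0.15 (adjusted p = 0.081). Cyp3a11, the usual readout of PXR, was higher in the Eif2s3y-high set with 0.59 (adjusted p = 0.00187) and had 0.30 (adjusted p = 0.0971) in the Eif2s3y-low set. The difference between the sets did not pass for it (adjusted p = 0.548).

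The 4 lower cytochromes were Cyp2c37, Cyp2c54, Cyp2c40 and Cyp3a13. Cyp2c37, an arachidonic acid hydroxylase, ran from -2.51 to 0.26 (median -0.89) in the Gsta2-high group of the Eif2s3y-high set, against -2.05 to 0.60 (median -0.20) in its Gsta2-low group, and 34 of 38 Gsta2-high arrays lay below the Gsta2-low median. It differed by -0.63 ± 0.14 (adjusted p = 0.000138) and -0.50 ± 0.12 (adjusted p = 0.00138). Cyp2c54 had -0.66 (adjusted p = 0.000141) and -0.52 (adjusted p = 0.0011), Cyp2c40 -0.29 (adjusted p = 0.017) and -0.93 (adjusted p = 8.16e-06) and Cyp3a13 -0.60 (adjusted p = 0.000773) and -0.45 (adjusted p = 0.0446). Centring each array on its median ended the call of Cyp3a13 in the Eif2s3y-low set (adjusted p = 0.0534). The members of the Cyp2c cluster are similar in sequence, so cross-hybridization among them cannot be told apart from shared change.

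Cyp3a16, a cytochrome that is more abundant in female and young mice, moved in opposite directions. It ran from -2.61 to -0.18 (median -1.06) in the Gsta2-high group of the Eif2s3y-high set, against -4.06 to -0.61 (median -1.50) in its Gsta2-low group. It ran from -1.86 to 1.81 (median -0.06) in the Gsta2-high group of the Eif2s3y-low set, against -1.48 to 2.82 (median 1.11) in its Gsta2-low group. The log2 differences were 0.56 ± 0.15 (adjusted p = 0.00214) and -0.92 ± 0.20 (adjusted p = 0.000532), and they differed from each other by 1.48 ± 0.26 (adjusted p = 0.000127).

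Ah receptor targets gave Nqo1 alone of 8 in both sets (12.5% higher, beside 7.01% of all genes). Cyp1a1 stood at 0.37 (adjusted p = 0.0313) and -0.024 (adjusted p = 0.968) and Cyp1a2 at -0.24 (adjusted p = 0.0825) and -0.0059 (adjusted p = 0.985). Of 7 genes of glucuronidation only Ugdh was called in both (14.3% higher), while the transferases measured, such as Ugt2b5 at 0.059 (adjusted p = 0.356) and 0.11 (adjusted p = 0.149), were not. Sulfotransferases gave 0 higher and 1 lower of 14 (7.14%, near the 5.53% of all genes), the lower one being Sult5a1 with -0.81 (adjusted p = 1.15e-06) and -0.35 (adjusted p = 0.00392). Among 17 other cytochromes, 3 were lower (17.6%) and 1 higher (5.88%), beside 5.53% and 7.01% of all genes. The retinoic acid hydroxylase Cyp26b1 fell with -0.77 (adjusted p = 3.66e-06) and -0.41 (adjusted p = 0.00437), the leukotriene hydroxylase Cyp4f14 with -0.46 (adjusted p = 0.000229) and -0.41 (adjusted p = 0.00242) and Cyp4f13 with -0.16 (adjusted p = 0.00535) and -0.21 (adjusted p = 0.00679), and Cyp4f16 rose with 0.29 (adjusted p = 2.88e-06) and 0.16 (adjusted p = 0.00485). Aldehyde, ketone, ester and epoxide enzymes gave 3 higher and 3 lower of 41 (7.32% each), near the 7.01% and 5.53% of all genes. The carboxylesterases lay on both sides: Ces1g had 0.40 and 0.34, Ces3b -0.61 and -0.47 and Ces4a -0.88 and -0.32.

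Transporters of drugs and bile acids gave 5 higher and 3 lower of 22 (22.7% and 13.6%), beside 7.01% and 5.53% of all genes. Abcb1a, the drug efflux pump P-glycoprotein, ran from -1.38 to 0.23 (median -0.44) in the Gsta2-high group of the Eif2s3y-high set, against -2.46 to -0.21 (median -1.38, n = 37) in its Gsta2-low group, with 37 of 38 Gsta2-high arrays above the Gsta2-low median. It differed by 0.81 ± 0.11 (adjusted p = 7.12e-09) and 0.54 ± 0.10 (adjusted p = 3.78e-05). Slc51b, a subunit of the basolateral bile acid exporter, rose with 0.35 (adjusted p = 0.00949) and 0.32 (adjusted p = 0.0149). The uptake carriers Slc10a1, for bile acids, and Slc22a7, for organic anions, fell, with -0.37 (adjusted p = 4.23e-05) and -0.29 (adjusted p = 0.000358) for Slc10a1 and -0.45 (adjusted p = 4.37e-07) and -0.36 (adjusted p = 7.73e-06) for Slc22a7. Of the regulators, 1 of 12 was lower in both sets (8.33%, near the 5.53% of all genes) and 0 higher. It was the hepatocyte factor Hnf4a, with -0.15 (adjusted p = 6.29e-05) and -0.11 (adjusted p = 0.00179). Over the lists of drug metabolism together, 12 of 128 genes were higher in both sets and 14 lower, a share near that of all genes in the higher direction (9.38% against 7.01%) and above it in the lower (10.9% against 5.53%).

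Metabolism of sulfur amino acids, the source of cysteine for glutathione, leaned downward: 5 of 18 genes were lower in both sets (27.8%) and 2 higher (11.1%), beside 5.53% and 7.01% of all genes. The 2 higher were Gclc and Gss of glutathione synthesis. Nnmt, which consumes S-adenosylmethionine to methylate nicotinamide, ran from -3.80 to 0.91 (median -0.80) in the Gsta2-high group of the Eif2s3y-low set, against -2.31 to 2.52 (median 0.38) in its Gsta2-low group, and 34 of 39 Gsta2-high arrays lay below the Gsta2-low median. Its log2 differences were -0.97 ± 0.23 (adjusted p = 0.000646) and -1.28 ± 0.22 (adjusted p = 8.74e-06). The hydrolase Ahcy had -0.35 (adjusted p = 0.000602) and -0.26 (adjusted p = 0.0218) and the methyltransferase Gnmt -0.27 (adjusted p = 0.0072) and -0.26 (adjusted p = 0.0153). Bile acid synthesis gave 4 lower (25%) and 0 higher of 16, led by the bile acid ligase Slc27a5 with -0.30 (adjusted p = 6.91e-06) and -0.23 (adjusted p = 0.000229) and the FGF coreceptor Klb with -0.17 (adjusted p = 0.0315) and -0.29 (adjusted p = 2.02e-05).

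Most of the largest shared differences lay outside the lists of oxidative stress and drug metabolism, which hold few of the genes tested. Of the 20 genes with the largest rise in both sets, Gstm1 and Cyp2c55 alone belonged to such a list. Of all 11385 genes tested, 59 were in the oxidative stress lists and 128 in those of drug metabolism. The 20 thus held a larger share of these genes than all genes tested did. Sprr1a, a small proline-rich protein of squamous epithelia that is induced by stress and injury, ran from -1.67 to 2.27 (median 0.94) in the Gsta2-high group of the Eif2s3y-high set, against -3.28 to 0.99 (median -1.50) in its Gsta2-low group. It ran from -2.36 to 1.13 (median -0.11) in the Gsta2-high group of the Eif2s3y-low set, against -3.55 to -0.46 (median -2.28) in its Gsta2-low group. The groups overlapped, but 37 of 38 and 38 of 39 Gsta2-high arrays lay above the Gsta2-low median.

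Sprr1a differed by 2.21 ± 0.23 (adjusted p = 1.01e-11) and 1.997 ± 0.18 (adjusted p = 1.19e-13), that is 4.61-fold and 3.99-fold, in both sets more than any other gene higher in both. Ubd, the ubiquitin-like protein FAT10, ran from -1.44 to 2.02 (median 0.71) in the Gsta2-high group of the Eif2s3y-high set, against -2.69 to 1.40 (median -1.11, n = 37) in its Gsta2-low group. It differed by 1.61 ± 0.21 (adjusted p = 3.23e-09) and 1.90 ± 0.20 (adjusted p = 1.84e-11). Ly6d, a membrane-anchored Ly6 protein, followed with 1.81 (adjusted p = 3.27e-10) and 1.16 (adjusted p = 3.67e-05). Of the epithelial genes among the 20, the keratin Krt23 had 1.23 and 1.28, the tetraspanin Tspan8 1.19 and 1.13, and the beta-defensin Defb1 1.10 and 1.10.

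Protease inhibitors and proteases were among them as well, with the secreted inhibitors Spink1 at 1.22 and 1.25 and Slpi at 1.20 and 1.22, the macrophage elastase Mmp12 at 1.32 and 1.02 and the membrane metalloprotease Adam8 at 1.07 and 0.78. Another probe, under the name SPINK1, had -0.14 and 0.011 and was called in neither set, so the probes disagree. Anxa2, a calcium-dependent membrane-binding protein, ran from -0.42 to 1.37 (median 0.58) in the Gsta2-high group of the Eif2s3y-high set, against -1.95 to 0.88 (median -0.51) in its Gsta2-low group, and every Gsta2-high array of that set exceeded the Gsta2-low median. It differed by 1.14 ± 0.14 (adjusted p = 1.05e-09) and 0.86 ± 0.12 (adjusted p = 1.72e-07). The rest of the 20 were Mtmr11 with 1.21 and 0.98, the eosinophil lectin Siglecf with 0.99 and 0.95, Gipc2 with 1.13 and 0.88, the lipid droplet protein Plin4 with 0.88 and 0.89, the mitotic genes Cdc20 with 0.83 and 0.85 and Knstrn with 0.92 and 0.80, and the surfactant lectin Sftpd with 0.86 and 0.79.

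**Figure D4:**
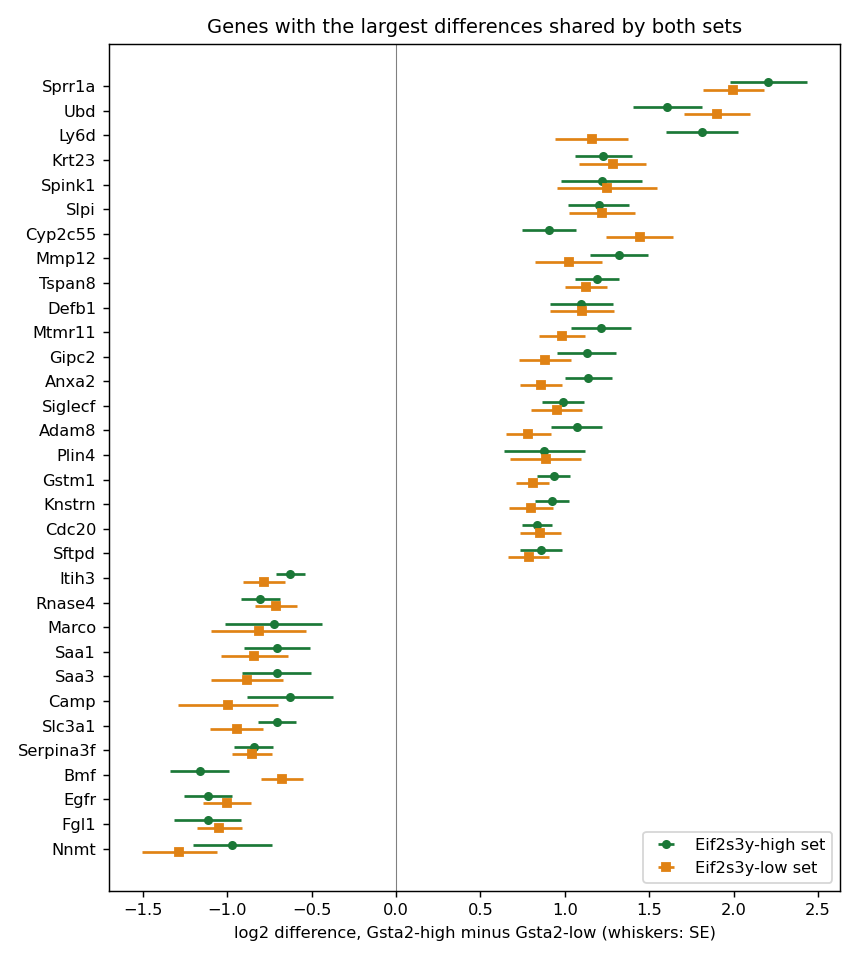
Log2 difference between the Gsta2-high and the Gsta2-low group for the 20 higher and 12 lower genes with the largest differences shared by both sets, ordered by the mean of both sets, with the SE as whiskers (circles, Eif2s3y-high set, and squares, Eif2s3y-low set). Sprr1a, Ubd and Ly6d lead the higher genes, and Nnmt, Fgl1 and Egfr the lower ones.

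Among the genes that fell, Egfr, the receptor of epidermal growth factor and a gene more abundant in male mouse liver, ran from -1.37 to 1.11 (median -0.11) in the Gsta2-high group of the Eif2s3y-high set, against -0.23 to 2.27 (median 1.02) in its Gsta2-low group. It ran from -2.39 to -0.41 (median -1.59) in the Gsta2-high group of the Eif2s3y-low set, against -1.76 to 1.45 (median -0.49) in its Gsta2-low group. In both sets 37 Gsta2-high arrays lay below the Gsta2-low median, of 38 and 39. The log2 differences of Egfr were -1.11 ± 0.14 (adjusted p = 2.4e-09) and -1.002 ± 0.14 (adjusted p = 1.59e-07).

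Fgl1, a fibrinogen-like protein that hepatocytes secrete, ran from -1.17 to 1.34 (median -0.47) in the Gsta2-high group of the Eif2s3y-low set, against -0.66 to 2.24 (median 0.74) in its Gsta2-low group. It differed by -1.12 ± 0.20 (adjusted p = 6.21e-06) and -1.05 ± 0.13 (adjusted p = 4.94e-09), and 36 of 38 and 37 of 39 Gsta2-high arrays lay below the Gsta2-low median. Other genes of the 12 were the serpin Serpina3f with -0.84 and -0.85, the ribonuclease Rnase4 with -0.80 and -0.71, the amino acid transporter subunit Slc3a1 with -0.70 and -0.94, the proapoptotic Bmf with -1.16 and -0.68 and the cathelicidin Camp with -0.63 and -0.99.

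Acute phase genes, which hepatocytes make under interleukin signals in inflammation, had the largest share of lower genes among the lists. In both sets 13 of 19 were lower (68.4%) and 0 higher, beside 5.53% and 7.01% of all genes. The median log2 differences of the list were -0.23 and -0.44, beside -0.014 and -0.015 over all genes tested. Saa1, a serum amyloid A, ran from -2.41 to 0.044 (median -1.28) in the Gsta2-high group of the Eif2s3y-low set, against -2.29 to 1.53 (median -0.42) in its Gsta2-low group, and 37 of 39 Gsta2-high arrays lay below the Gsta2-low median. Its differences were -0.70 ± 0.20 (adjusted p = 0.00308) and -0.84 ± 0.20 (adjusted p = 0.00139). Saa3 had -0.71 (adjusted p = 0.00509) and -0.88 (adjusted p = 0.00148), the pentraxin Apcs -0.76 (adjusted p = 0.000249) and -0.61 (adjusted p = 0.0013) and the inter-alpha-trypsin inhibitor chain Itih3 -0.63 (adjusted p = 1.53e-08) and -0.78 (adjusted p = 2.04e-06). Cebpd, a transcription factor of the acute phase, was counted in the list at 0.055 (adjusted p = 0.238) and -0.037 (adjusted p = 0.528), while another probe under the name CEBPD had -0.80 (adjusted p = 8.44e-08) and -0.36 (adjusted p = 2.29e-05) (chosen after its values were seen). The mean log2 ratio of the list ran from -0.64 to 0.11 (median -0.37) in the Gsta2-high group of the Eif2s3y-low set, against -0.61 to 1.54 (median -0.007) in its Gsta2-low group. The Gsta2-low group thus held the arrays with the highest acute phase level, while most of its arrays overlapped the Gsta2-high group.

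Of the cell division genes, 14 of 21 (66.7%) were higher in both sets, beside 7.01% of all genes, and 1, the checkpoint kinase Bub1, was lower (Bub1 was chosen after its values were seen), with medians of 0.32 and 0.35. Cdc20, the activator of the anaphase-promoting complex, ran from -0.44 to 1.29 (median 0.44) in the Gsta2-high group of the Eif2s3y-high set, against -1.73 to 0.33 (median -0.38) in its Gsta2-low group, with 37 of 38 Gsta2-high arrays above the Gsta2-low median. It differed by 0.83 ± 0.09 (adjusted p = 1.98e-11) and 0.85 ± 0.12 (adjusted p = 1.34e-07). The mitotic cyclin Ccnb2 had 0.78 (adjusted p = 1.8e-10) and 0.71 (adjusted p = 1.79e-05), survivin, Birc5, 0.64 (adjusted p = 2.53e-09) and 0.68 (adjusted p = 9.65e-06) and the replication helicase subunit Mcm6 0.60 (adjusted p = 8.18e-07) and 1.02 (adjusted p = 9.84e-11). Of the p53 targets, 2 of 12 were higher in both sets (16.7%, beside 7.01% of all genes) and 0 lower. The 2 were Phlda3 with 0.72 (adjusted p = 4.55e-08) and 0.47 (adjusted p = 7.14e-05) and the cell cycle inhibitor Cdkn1a with 0.60 (adjusted p = 2.25e-05) and 0.38 (adjusted p = 0.0109).

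Markers of other liver cells were compared in the same way. Genes of stellate cells and matrix were higher in both sets for 11 of 17 (64.7%) and lower for 0, beside 7.01% and 5.53% of all genes. Among the higher were Mmp13 at 1.11 (adjusted p = 3.53e-07) and 0.75 (adjusted p = 0.000264), Thbs2 at 0.76 (adjusted p = 7.49e-10) and 0.59 (adjusted p = 6.47e-06), Lum at 0.79 (adjusted p = 2.02e-07) and 0.58 (adjusted p = 3.14e-05) and Lox at 0.84 (adjusted p = 1.98e-09) and 0.50 (adjusted p = 0.000842). The mean level of this list ran from -0.17 to 0.57 (median 0.19) in the Gsta2-high group of the Eif2s3y-high set, against -0.76 to 0.40 (median -0.31) in its Gsta2-low group, and from -0.37 to 0.47 (median 0.042) in the Gsta2-high group of the Eif2s3y-low set, against -1.10 to 0.035 (median -0.28) in its Gsta2-low group. Genes of the cholangiocyte list were higher in both sets for 5 of 8 (62.5%) and lower for 0. They were led by Krt8 with 0.65 (adjusted p = 1.94e-08) and 0.60 (adjusted p = 2.21e-11) and the chloride channel Cftr with 0.68 (adjusted p = 3.47e-08) and 0.54 (adjusted p = 0.000438). Their mean level ran from -0.42 to 0.47 (median -0.11) in the Gsta2-high group of the Eif2s3y-high set, against -0.71 to 0.075 (median -0.44) in its Gsta2-low group. In the Eif2s3y-low set the level ran from -0.28 to 0.90 (median 0.12) in the Gsta2-high group, against -0.49 to 0.19 (median -0.19) in the Gsta2-low group. The duct keratin Krt19 had 0.072 (adjusted p = 0.192) and 0.071 (adjusted p = 0.316), while another probe under the name KRT19 had -0.85 (adjusted p = 3.44e-07) and -0.26 (adjusted p = 0.0124) (both chosen after their values were seen). Which cells the transcripts of the cholangiocyte list came from was not tested.

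Macrophage genes were higher for 19 of 23 and lower for 1 in the Eif2s3y-high set, where 15.4% of all genes were higher. They were higher in the Eif2s3y-low set for 5 and lower for 2. In both sets they were higher for 5 (21.7%) and lower for 1 (4.35%), beside 7.01% and 5.53% of all genes. Their median log2 differences were 0.30 and 0.13, and the test of the difference between the sets passed for 0 of them by limma, with 7 at an unadjusted p under 0.05. Trem2, a lipid-sensing receptor of macrophages in fatty liver, ran from -1.07 to 0.98 (median 0.31) in the Gsta2-high group of the Eif2s3y-high set, against -2.49 to 0.86 (median -0.82) in its Gsta2-low group. It differed by 0.94 ± 0.14 (adjusted p = 1.33e-07) and 0.71 ± 0.13 (adjusted p = 2.83e-05). The integrin Itgax rose with 0.91 (adjusted p = 9.4e-10) and 0.68 (adjusted p = 1.2e-05), while Marco, a scavenger receptor of resident Kupffer cells, fell with -0.72 (adjusted p = 0.045) and -0.81 (adjusted p = 0.0345). With the array SD as a covariate Marco had adjusted p-values of 0.151 and 0.0636. The mean level of the macrophage list ran from -0.42 to 0.49 (median -0.12) in the Gsta2-high group of the Eif2s3y-high set, against -0.87 to 0.49 (median -0.44) in its Gsta2-low group, and from -0.19 to 0.49 (median 0.14) in the Gsta2-high group of the Eif2s3y-low set, against -0.61 to 0.78 (median -0.0093) in its Gsta2-low group. Endothelial genes were higher for 8 of 13 in the Eif2s3y-high set, for 1 in the Eif2s3y-low set and for 1 in both, Emcn, with 0.52 (adjusted p = 1.61e-06) and 0.40 (adjusted p = 0.00099). Another probe of the endothelial Vwf, under the name VWF, passed in both sets with 0.44 (adjusted p = 4.4e-09) and 0.27 (adjusted p = 0.000568), against 0.33 (adjusted p = 0.000428) and 0.18 (adjusted p = 0.0751) for the probe counted (both chosen after their values were seen). Lymphocyte genes were higher for 3, 1 and 1 of 13 in the same order, with Klrd1 at 0.47 (adjusted p = 0.00111) and 0.35 (adjusted p = 0.0295). The share higher in both sets was 7.69% in each of these lists, near the 7.01% of all genes.

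The 6 hepatocyte markers measured had median log2 differences of -0.14 and -0.082, with 1 lower in both sets (16.7%, beside 5.53% of all genes). Pancreas and muscle markers gave 0 calls in both sets of 8 and 10 by limma. The part of cell composition in the differences of Gsta2 groups was not tested.

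Lipid storage genes were higher in both sets for 5 of 12 (41.7%, beside 7.01% of all genes), with median differences of 0.39 and 0.33. Plin4, a lipid droplet coat protein, ran from -2.68 to 1.32 (median 0.063) in the Gsta2-high group of the Eif2s3y-low set, against -3.21 to 0.90 (median -1.13) in its Gsta2-low group, and differed by 0.88 ± 0.24 (adjusted p = 0.00268) and 0.89 ± 0.21 (adjusted p = 0.00126). The fatty acid binding protein Fabp4 had 0.59 (adjusted p = 0.00109) and 0.50 (adjusted p = 0.00242) and the fatty acid uptake receptor Cd36 0.67 (adjusted p = 8.13e-06) and 0.36 (adjusted p = 0.00329). Fatty acid synthesis gave 4 higher (23.5%) and 1 lower (5.88%, near the 5.53% of all genes) of 17, with the desaturase Scd1 at 0.70 (adjusted p = 3.1e-05) and 0.55 (adjusted p = 0.0426) and the synthase Fasn at 0.62 (adjusted p = 0.00524) and 0.54 (adjusted p = 0.0264). Of 25 genes of fatty acid oxidation 4 rose in both sets (16%) and 0 fell, led by the pyruvate dehydrogenase kinase Pdk4 with 0.74 (adjusted p = 8.91e-06) and 0.70 (adjusted p = 0.000951) and the peroxisome protein Pex11a with 0.36 (adjusted p = 0.00203) and 0.42 (adjusted p = 0.00557).

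**Figure D5:**
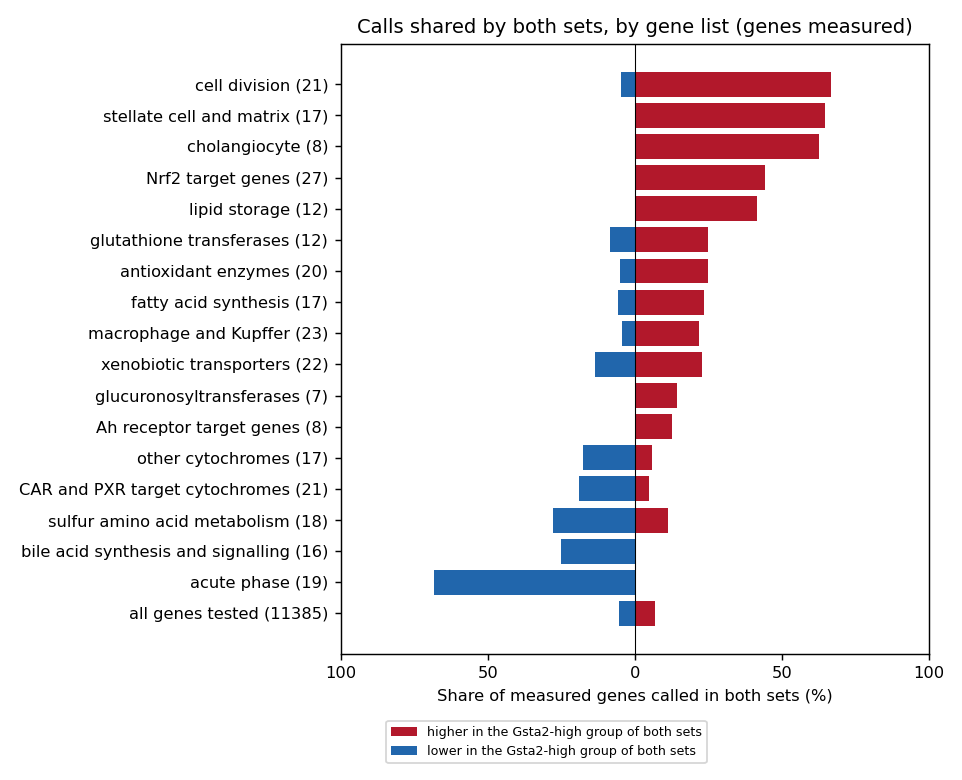
Share of the measured genes of each list (number measured in brackets) that were higher (red, to the right) or lower (blue, to the left) in the Gsta2-high group of both sets. Cell division, matrix, cholangiocyte and Nrf2 target lists reach 66.7, 64.7, 62.5 and 44.4% on the higher side, acute phase genes 68.4% on the lower side, and all genes tested 7.01% and 5.53%.

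The difference of the differences was tested for each gene, and 243 genes (2.13%) differed between the sets, 53 with the higher signed value in the Eif2s3y-high set and 190 with the higher signed value in the Eif2s3y-low set. Hsd3b5, a steroid reductase of male mouse liver, differed most. It ran from -4.36 to 2.12 (median -1.82) in the Gsta2-high group of the Eif2s3y-high set, against -4.58 to 3.05 (median 1.83) in its Gsta2-low group. In the Eif2s3y-low set it ran from -4.86 to -2.51 (median -4.06) in the Gsta2-high group, against -4.78 to -3.12 (median -4.11) in the Gsta2-low group. In the Eif2s3y-high set 37 of 38 Gsta2-high arrays lay below the Gsta2-low median. In the Eif2s3y-low set all arrays of both groups were far below the pool. Its log2 differences were -2.81 ± 0.43 (adjusted p = 2.54e-07) and -0.10 ± 0.11 (adjusted p = 0.587).

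Male-biased liver genes as a list were lower in the Gsta2-high group of the Eif2s3y-high set for 10 of 14, where 17.3% of all genes were lower. They were higher in the Eif2s3y-low set for 3 and lower for 2, where 8.73% and 8.42% of all genes were. In both sets they were lower for 2 (14.3%, beside 5.53% of all genes). The test of the difference between the sets passed for 6, beside 2.13% of all genes. The mean level of the male-biased genes ran from -1.01 to 0.99 (median 0.044) in the Gsta2-high group of the Eif2s3y-high set, against -0.62 to 1.62 (median 0.79) in its Gsta2-low group, a downward shift with overlapping ranges. The oxysterol hydroxylase Cyp7b1 belonged to them, with -1.15 (adjusted p = 1.88e-07) and -0.12 (adjusted p = 0.193). In the Eif2s3y-low set the mean level ran from -2.33 to -0.87 (median -1.79) in the Gsta2-high group, against -2.18 to -1.07 (median -1.76) in the Gsta2-low group. Female-biased liver genes were higher for 9 of 21 and lower for 4 in the Eif2s3y-high set, where 15.4% and 17.3% of all genes were. The Eif2s3y-low set had 2 higher and 6 lower, where 8.73% and 8.42% of all genes were. The difference between the sets passed for 3 of them, Cyp3a16 among them. Omd, a matrix proteoglycan of neither list, had -0.021 (adjusted p = 0.92) and 1.02 (adjusted p = 2.22e-08).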

How the data were processed

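Each deposited value is the log10 ratio of 1 liver to the common pool, and no value lies beyond -2 or 2, with 1990 at these limits. How the authors normalized the values, and with which software, is not given in the sources used here. That log10 is the base and that liver stands over pool was derived from the values: the slope of the gene means on their variances was -0.848, against -1.15 for a pool of all samples, and the mean linear ratio was 1.06, against 1.19 if inverted. Of 48205 pairs of arrays, 131 had r under -0.3 (lowest -0.435). The direction was kept because the labels state both dyes for every array. In total 0.745% of values were missing. The F2 number of an animal was read from its title, with which the source name of 1 sample disagrees.

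Of 23388 probes, 13645 named 1 gene, 48 several and 9695 none. Symbols were updated through RefSeq genes of GRCm38.p6 (12653 through the Entrez ID, 214 and 93 through a current or an older symbol, 4 through an accession), and 681 stayed as given. Among 22863 probes measured on at least 95% of arrays, the 1 with the fewest missing values stood for its gene, the first in the file at ties, which left 11387 gene names. Names without a match stayed as the platform gives them, so 127 pairs of names, such as Krt19 and KRT19, differ in letter case alone and were both counted. Arrays were split at -0.5 on the log10 ratio of Eif2s3y and divided into 4 groups by Gsta2. Log10 ratios were multiplied to log2, and limma 3.58.1 (lmFit and eBayes, R 4.3.3) tested the Gsta2-high minus the Gsta2-low group in each set, the difference of both, and upper minus lower middle group, with Benjamini-Hochberg adjustment over all 11385 genes at 0.05. The fit was tested on simulated data. Array measures had two-sided permutation tests with 100000 resamples (scipy 1.17.1). Python 3.11.15, pandas 2.3.3, numpy 2.4.6 and matplotlib 3.10.9 were used.

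The rule, the groups and the 28 gene lists and 11 marker lists (567 of 816 genes measured) were chosen with earlier results of these data known. Named are Gsta2, Eif2s3y and Kdm5d, the 20 higher and 12 lower shared genes whose smaller log2 difference was largest, members of the lists of glutathione transferases, Nrf2 targets, antioxidant enzymes, CAR, PXR and Ah receptor targets and glucuronidation, up to 4 genes called in both sets per other list, the 6 genes with the smallest p for the difference between the sets, and 4 with opposite signs. Arrays are 1 per animal, so p-values judge a difference between groups against the spread between animals, and the number of arrays limits the precision.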

Additional observations from a re-analysis of the deposited data

Results flagged for a closer look

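The log2 difference between the Gsta2-high and the Gsta2-low group was itself compared between the sets. Given here are 17 genes chosen by the naming rule that had an adjusted p under 0.05 by limma. They are not all the list genes that passed. In the lists, 6 of 14 male-biased liver genes, 3 of 21 female-biased ones and 3 of 22 xenobiotic transporters did, beside 2.13% of all genes tested. So did 3 of 21 CAR and PXR target cytochromes, 3 of 27 Nrf2 targets, 2 of 20 antioxidant enzymes and 2 of 21 cell division genes. In each other list at most 1 gene did. All values are the difference in the Eif2s3y-high set minus that in the Eif2s3y-low set. Genes known to differ between male and female liver were among the 17: Hsd3b5 at -2.71, Cyp3a16 at 1.48 and Cyp7b1 at -1.03. Cytochromes and esterases added Cyp2c40 at 0.64, Cyp2b19 at -0.31 and Ces4a at -0.56. Cyp2c40 and Ces4a fell in both sets to different extents.

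Among genes of oxidative stress, the 3 Nrf2 targets Cbr3 at 0.68, Nqo1 at 0.39 and Blvrb at 0.30 and the peroxidase Gpx7 at 0.34 rose in both sets and more in the Eif2s3y-high set. Gpx1, at -0.40, fell in the Eif2s3y-high set alone, and the test of the difference passed (adjusted p = 0.0274).

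Of the genes with opposite calls, the superoxide-producing oxidase Nox4 stood at -0.51, with -0.25 (adjusted p = 0.0081) and 0.26 (adjusted p = 0.0189). Arrdc4, an arrestin-like protein, stood at 0.31 with 0.18 (adjusted p = 0.00122) and -0.13 (adjusted p = 0.0258), and the Notch ligand Dll1 at 0.28 with 0.15 (adjusted p = 0.00392) and -0.13 (adjusted p = 0.0296). The proteoglycan Omd stood at -1.04, the ciliary transport protein Wdr19 at -0.36 and the tight junction protein Cldn9 at -0.45. With the array SD as a covariate 238 of all genes tested differed between the sets, against 243 without it. The part of cell composition in these differences was not tested.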

How the results depend on the processing

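The counts of each set and of both sets were recomputed under 17 alternatives and the count of genes that differed between the sets under 8, and those not given here stayed within 1.5 times of the values in the report. Probes measured on every array, which leave fewer genes, gave 1102 higher and 1254 lower genes in the Eif2s3y-high set, 654 higher in the Eif2s3y-low set and 520 higher in both. Animals with F2 numbers up to the median alone gave 1260 lower genes in the Eif2s3y-high set, 414 higher and 267 lower in the Eif2s3y-low set, and 338 higher and 183 lower in both. Those above the median gave 891 higher and 575 lower in the Eif2s3y-high set, 311 higher and 202 lower in the Eif2s3y-low set, and 213 higher and 83 lower in both. These subsets hold fewer arrays, and the F2 number above the median as a block kept 97.8% of the shared calls. The extreme 10% of arrays gave 1204 lower genes in the Eif2s3y-high set and 398 lower in both. Regression on the Gsta2 log2 ratio gave 1652 lower in the Eif2s3y-low set, 949 lower in both and 747 genes that differed between the sets, 298 with the higher signed value in the Eif2s3y-high set and 449 in the Eif2s3y-low set. With each array centred and divided by its SD these were 142, 32 and 110, against 243, 53 and 190 in the report. The 7 genes with opposite calls became 26 by regression, 11 with array weights and 0 in either subset by F2 number. The cause was not tested.

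Of the 1428 shared calls, 89.2% were kept after centring each array on its median and 82.0% with the array SD as a covariate. Without the arrays that had a pancreas or muscle marker at 10-fold or more over the pool, 88.7% were kept. For 57 named genes in both sets, 1803 of 1902 repeats kept their call, 96 lost it in the same direction, and Gstt2 in the Eif2s3y-high set reversed to -0.015 in the animals above the median F2 number and to -0.049 between the extreme 10%. Symbols matched without regard to letter case, an alternative chosen after seeing the data, left 11258 genes, with 791 higher and 628 lower in both sets and 236 that differed between the sets. The probe then used for Spink1, named SPINK1 by the platform, had -0.14 in the Eif2s3y-high set and 0.011 in the Eif2s3y-low set. The lists then had 13 of 28 Nrf2 targets higher in both sets, 2 of 13 endothelial genes higher, and 5 of 8 cholangiocyte genes higher and 1 lower. No paired analysis was possible because all animals form 1 group and their numbers name single F2 animals.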
